A study of Homo sapiens with 16 samples.

Results

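U-251 MG is an established human glioblastoma cell line, and the 4 libraries described here came from U-251 MG cells that had received only the vehicle DMSO for 48 h, starting 24 h after seeding. They were chosen by their label, and they are 4 of the 16 libraries of the series. The other 12 libraries, which came from cells given simvastatin, irinotecan or both drugs, were used only to look at genes without reads. The cells of all 16 libraries were grown in high-glucose medium with 10% fetal bovine serum and trypsinised before RNA extraction, and they stand for 1 cell line under 1 growth condition. Poly(A) RNA was sequenced as read pairs. Whether the 4 libraries came from separate cultures is not stated in the labels, so an SD measures the spread between these libraries, which may be technical. One of the 4 carried no number in its label and is called replicate 4.

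The libraries held 28491765, 24478638, 26073333 and 31932971 counts in replicates 1 to 4. Levels are in CPM, a gene's counts scaled to a library total of 1000000, and are given as mean ± SD over n = 4 libraries. Comparisons of different genes per length are in TPM. TPM is the same scale after each gene's counts are divided by its combined exon length, computed here. Contrasts between genes given in CPM, and rankings by counts, are not corrected for length. A gene was called detected if it had at least 1 CPM in every library, low below that, trace if its mean was under 0.1 CPM, and without reads if all 4 libraries had 0 counts. Over the 4 libraries together, 0 counts allow a level of up to 0.0270 CPM (3 counts), and this limit covers counting error only. Of 19775 nuclear protein-coding genes, 11871 were detected, which is 60.0%, and 3355, or 17.0%, had no reads. The median level was 5.98 TPM over all nuclear protein-coding genes and 25.5 TPM over the detected ones. These values are the background for each gene list below.

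Glioblastoma cells vary along a range of states. Proneural cells resemble neural or oligodendrocyte progenitors and carry factors such as OLIG2, while mesenchymal cells carry CD44, extracellular matrix and AP-1, STAT3 and YAP/TAZ transcription factors. Glial identity is judged from GFAP, the astrocyte intermediate filament, and from SOX factors. Loss of the CDK inhibitors at chromosome 9p21 and silencing of MGMT, a DNA repair enzyme that removes alkyl groups from guanine, are both well known in this tumour type.

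In these cells 29 of 30 listed mesenchymal marker genes were detected, and CD44, ANXA2 and VIM were among the 20 nuclear genes with the most counts. Beside them 15 of 20 astrocyte and 19 of 24 neural stem cell and proneural genes were detected. The astrocyte median of 9.19 TPM, over all 20 members, lay above the 5.98 TPM of all nuclear protein-coding genes. It lay below the 25.5 TPM of the detected ones. Of the other lists, 3 of 13 oligodendrocyte, 0 of 12 microglia and leukocyte and 3 of 10 endothelial and pericyte genes were detected. All lists were chosen with earlier results of these data known. No reads came from CDKN2A, CDKN2B, CDKN2C or MGMT. The promoter windows of genes that carry these results are shown first, so that their letters can be set beside their levels.

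The sequences are from RefSeq on GRCh38.p14 and run 5′ to 3′ on the gene's strand, from 250 to 101 bases before the start of the gene. CG dinucleotides, the sites of DNA methylation, are in capitals. None of these windows overlaps an annotated exon. The first 4 genes had no reads, INSR had trace reads, and VIM and TNC were among the 20 nuclear genes with the most counts.
MGMT: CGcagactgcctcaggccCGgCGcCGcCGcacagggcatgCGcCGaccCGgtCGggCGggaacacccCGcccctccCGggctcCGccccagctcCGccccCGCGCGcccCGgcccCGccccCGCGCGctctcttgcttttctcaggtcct
CDKN2B: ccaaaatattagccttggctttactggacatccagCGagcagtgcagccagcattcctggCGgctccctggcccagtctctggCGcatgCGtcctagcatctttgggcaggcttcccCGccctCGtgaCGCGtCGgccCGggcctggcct
CDKN2C: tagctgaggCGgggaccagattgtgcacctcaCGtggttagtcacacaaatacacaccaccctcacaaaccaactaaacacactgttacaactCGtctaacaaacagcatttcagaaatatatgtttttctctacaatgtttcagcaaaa
FAF1: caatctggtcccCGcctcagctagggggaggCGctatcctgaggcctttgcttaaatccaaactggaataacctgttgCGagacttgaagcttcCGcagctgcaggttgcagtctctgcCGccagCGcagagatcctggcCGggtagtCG
INSR: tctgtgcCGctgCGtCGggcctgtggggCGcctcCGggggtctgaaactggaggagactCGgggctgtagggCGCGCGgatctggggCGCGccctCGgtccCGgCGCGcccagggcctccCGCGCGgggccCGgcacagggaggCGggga
VIM: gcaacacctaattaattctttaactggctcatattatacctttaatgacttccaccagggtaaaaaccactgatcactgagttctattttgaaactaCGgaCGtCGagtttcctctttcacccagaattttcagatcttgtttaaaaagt
TNC: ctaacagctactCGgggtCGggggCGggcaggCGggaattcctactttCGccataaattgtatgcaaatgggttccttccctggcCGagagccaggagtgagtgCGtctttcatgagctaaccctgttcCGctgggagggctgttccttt

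These windows lie at chr10:129466991-129467140, plus strand (MGMT), chr9:22009406-22009555, minus strand (CDKN2B), chr1:50960495-50960644, plus strand (CDKN2C) and chr1:50960368-50960517, minus strand (FAF1). The others lie at chr19:7294515-7294664, minus strand (INSR), chr10:17227991-17228140, plus strand (VIM) and chr9:115118258-115118407, minus strand (TNC). CDKN2C and FAF1 point away from each other, with start sites 478 bases apart, so that their windows overlap.

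In the full 250 bases before the start there were 36 CG in MGMT, 18 in CDKN2B, 7 in CDKN2C and 20 in FAF1. INSR had 28, VIM 8 and TNC 12. VIM and TNC are not typical of abundant genes here. Of others among the 20 nuclear genes with the most counts, CD44 had 15, SCD 23, DPYSL3 25, CXCL14 25, ENO1 27 and PKM 28. CDKN2A, which had no reads and is not printed, had 24. Over the 15294 protein-coding genes with a RefSeq window, the median was 21 CG for detected genes, 3 for genes without reads and 17 for all. At least 10 CG were found in 87.0% of the detected genes, in 27.1% of those without reads and in 69.4% of all. MGMT, CDKN2B and FAF1 were thus among the genes without reads that had at least 10 CG, and VIM among the detected genes that had fewer. The letters TATAAA, searched on both strands, were in 4.97% of the windows of detected genes, 22.7% of those without reads and 9.32% of all. The letters GGGCGG, also on both strands, were in 68.6%, 26.4% and 57.0%. A match is a description of the letters and not of a bound site, and DNA methylation was not measured.

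Among the 20 nuclear genes with the most counts were ACTB, which encodes an actin, and the glycolytic genes PKM, ENO1, GAPDH and PGK1. ACTB (ENSG00000075624), cytoplasmic beta-actin, had 13311, 12193, 12195 and 12909 CPM in replicates 1 to 4 and took the most counts of any gene. PKM, the pyruvate kinase of the last step of glycolysis, had 7919.6, 7243, 7719 and 7455 CPM. ENO1, an enolase, had 6589, 5901, 6245 and 5898 CPM. Replicate 1 was the highest for all 3 genes. GAPDH reached 3971 ± 226 CPM and PGK1 3522 ± 127 CPM, both glycolytic, and the elongation factor EEF1A1 reached 4686 ± 184 CPM. All 30 genes of a glycolysis and hypoxia list were detected, with a median of 194 TPM, and together they took 2.98% of counts.

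Several of these 20 are not housekeeping genes. DPYSL3, a cytoskeleton-binding protein of growing neurites, had 3387, 3393, 3581 and 3355 CPM. CD44, the hyaluronan receptor, had 3107, 3130.3, 3291 and 3178 CPM. TNC, the matrix glycoprotein tenascin-C, had 2944, 2867, 3302 and 2858 CPM, and ANXA2, a membrane-binding annexin, had 3109.8 ± 136 CPM. CXCL14, a chemokine, had 2221, 2173, 2261 and 2169 CPM. The CV, the SD over the mean, was 2.99% for DPYSL3, 2.57% for CD44, 4.38% for ANXA2, 1.96% for CXCL14 and 7.01% for TNC. The median CV of nuclear protein-coding genes at 1000 CPM or more was 3.63%, with an upper quartile of 4.64%, so TNC varied more than most. SCD, which desaturates fatty acids, had 2274 ± 68.8 CPM. In all, 11 genes were in the top 20 by both CPM and TPM.

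**Figure D1:**
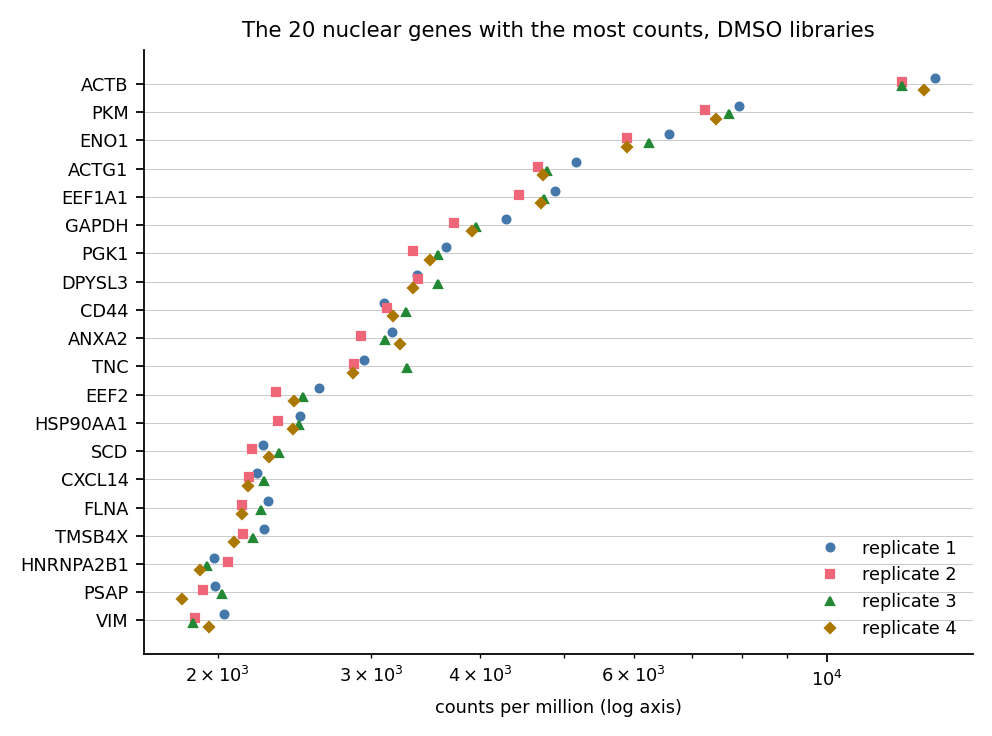
CPM (log axis) of the 20 nuclear genes with the most counts in the 4 DMSO libraries, with 1 symbol per library. Within a gene the CV between libraries is 1.96% (CXCL14) to 7.01% (TNC), and ACTB stands apart from the rest at 12193 to 13311 CPM.

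The counts were spread over many genes. The 10 most abundant genes, mitochondrially encoded ones included, held 6.00 ± 0.43% of counts and the 100 most abundant held 19.2 ± 0.58%. In all, 954 genes held 50% of counts and 5803 held 90%. Ribosomal protein mRNAs took 2.97 to 3.31% of counts, with 82 of 86 genes detected. Long non-coding RNAs took 0.903 ± 0.083%, led by NEAT1, MALAT1 and NORAD.

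Of 30 mesenchymal glioblastoma genes 29 were detected, 96.7% against 60.0% of all nuclear protein-coding genes, with a median of 141 TPM. The list was chosen with earlier results of these data known, so its share describes the listed genes and is no test of the state. VIM, the mesenchymal intermediate filament vimentin, had 2032, 1886, 1873 and 1954 CPM. The secreted matrix protein TGFBI had 1124, 1053, 1086 and 1098 CPM. The calcium-binding protein S100A6 and the galectin LGALS1 stood at 2899 TPM and 1719 TPM, and S100A6 was the highest of the list per length. SPP1, the cytokine osteopontin, reached 474 ± 11.0 CPM. Fibrillar collagens were uneven per length, with COL5A1 at 155 TPM, COL1A2 at 128 TPM and COL1A1 at 9.86 TPM. CHI3L1, a secreted protein much used as a mesenchymal marker in tumours, had 2.46, 2.57, 2.38 and 1.57 CPM, and its 2.66 TPM lay near the bottom of the list. MGP, a matrix calcification inhibitor, was the member that was not detected, at 0.615 ± 0.350 CPM.

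The transcription factors linked to this state were also present, with 20 of 22 detected and a median of 36.2 TPM. WWTR1, which encodes the coactivator TAZ, had 495, 530.3, 546 and 529 CPM, and its relative YAP1 had 97.7 ± 4.84 CPM. STAT3 had 440.3, 448, 446 and 423 CPM. The AP-1 subunits FOSL2 and FOSL1 had 410.2 ± 11.5 CPM and 109 ± 8.63 CPM, and RUNX1 had 149 ± 5.52 CPM. Per length, factors of epithelial-mesenchymal transition lay below WWTR1 at 251 TPM and STAT3 at 201 TPM, with ZEB1 at 15.3 TPM, ZEB2 at 9.66 TPM, TWIST1 at 20.2 TPM and SNAI2 at 10.3 TPM. SNAI1 was low at 0.629 ± 0.226 CPM and TWIST2 had no reads. CDH2, or N-cadherin, had 229, 232, 246 and 225 CPM, while CDH1, or E-cadherin, was low at 0.162 ± 0.123 CPM, or 0.102 CPM without replicate 4.

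**Figure D2:**
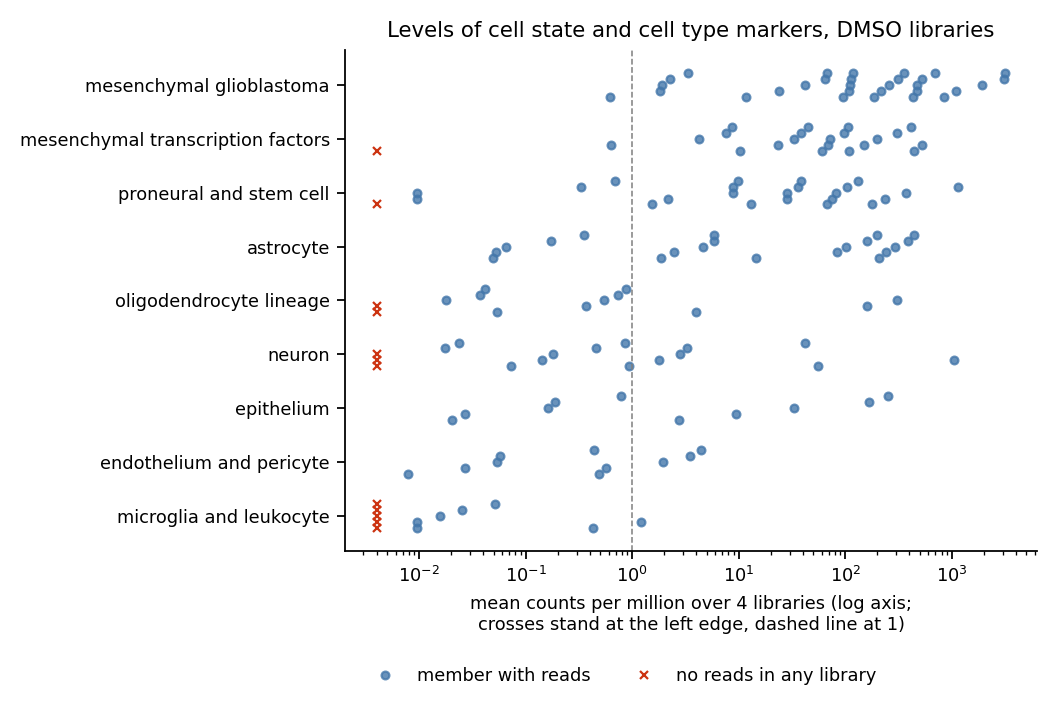
Mean CPM over the 4 DMSO libraries (log axis) of each member of 9 marker lists, with genes without reads as crosses at the left and a dashed line at 1 CPM. Mesenchymal genes lie mostly far right of the line, while no microglia and leukocyte gene was detected (CSF1R, at a mean of 1.21 CPM, fell below the line in 1 library).

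Astrocyte genes were detected in 15 of 20 cases, with a median of 9.19 TPM. GFAP (ENSG00000131095) had 196, 202, 209 and 184 CPM. GLUL, glutamine synthetase, had 438 ± 15.9 CPM. FABP7, the fatty acid-binding protein of radial glia, had 244, 246, 239 and 245 CPM. GJA1, the astrocyte gap junction protein, had 161 ± 8.41 CPM, and the glutamate transporter SLC1A3 had 83.1 ± 5.08 CPM. Of the 20 members 3 were at trace level, among them the folate enzyme ALDH1L1 at 0.0648 ± 0.0586 CPM and the water channel AQP4 at 0.0530 ± 0.0158 CPM. S100B was detected at 4.63 ± 0.393 CPM.

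Neural stem cell and proneural genes were detected in 19 of 24 cases, with a median of 30.7 TPM. NES, the progenitor filament nestin, had 1203, 1177, 1171 and 976 CPM, and replicate 4 was the lowest. SOX2, a factor of neural stem cells, had 366, 365, 390.2 and 376 CPM. SOX9, a factor of glial fate, had 369.6, 393, 382 and 412 CPM. POU3F2 reached 178 ± 4.27 CPM. MYCN had no reads, and the stem cell surface marker PROM1 was low at 0.331 ± 0.137 CPM.

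The oligodendrocyte list had 3 of 13 members detected, a median of 0.116 TPM. CNP, which other cells also express, had 302 ± 18.3 CPM and the growth factor receptor PDGFRA had 158, 158, 168 and 161 CPM. The lineage factors were at or near 0: OLIG2 had 2, 0, 0 and 3 counts in the 4 libraries, OLIG1 had 0, 1, 2 and 1, and SOX10 had none. The myelin gene MAG had no reads either.

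Neuron genes were detected in 6 of 17 cases, with a median of 0.345 TPM. The 1 member that stood out was NEFL, the light neurofilament subunit, at 1055, 979.7, 1059.5 and 1075 CPM. Its partner subunits NEFM at 0.938 ± 0.167 CPM and NEFH at 0.143 ± 0.0657 CPM were not detected. NEFM shares 38.9% of its exonic bases with another annotated gene, so part of its reads may have been left uncounted or counted elsewhere. GAD1, which makes GABA, had 55.2 ± 8.53 CPM, while its paralog GAD2 had no reads. DCX and STMN2, genes of young neurons, were at trace level.

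Markers of other cell types were looked at because the libraries are of bulk RNA, in which fewer cells of a type and less RNA per cell cannot be told apart. Of 12 microglia and leukocyte genes none was detected, and their summed level was 1.37 to 2.13 CPM over the libraries. CSF1R made up most of it at 0.983, 1.06, 1.34 and 1.44 CPM, below 1 CPM in replicate 1, and without that library it counts as 1 detected gene. PTPRC, the pan-leukocyte antigen CD45, had 1, 0, 2 and 3 counts, and ITGAM, TMEM119, TYROBP, CD3E and MS4A1 had none. The endothelial and pericyte list had 3 of 10 detected, RGS5, KDR and PDGFRB, all under 5 CPM, with a sum of 10.9 to 12.3 CPM. PECAM1 and CDH5, which define endothelium, were at trace level. Among epithelial genes 5 of 10 were detected, and KRT8 at 271, 233, 249 and 243 CPM and its partner KRT18 at 166 ± 5.71 CPM were high, while EPCAM had 0, 2, 0 and 0 counts. KRT81, a hair keratin that is not in that list, had 339, 274, 315 and 293 CPM. KRT81 belongs to a family of similar genes, so its counts could in part be reads of relatives.

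Of 48 tumour suppressor genes 42 were detected, 87.5% with a median of 27.4 TPM, and 3 had no reads in any of the 4 libraries. CDKN2A (ENSG00000147889) encodes the CDK4/6 inhibitor p16 and the protein ARF. CDKN2B (ENSG00000147883) encodes p15 and CDKN2C (ENSG00000123080) p18, inhibitors of the same kinases. Each had 0 counts in replicates 1 to 4, which allows up to 0.0270 CPM, and each had 0 counts in the other 12 libraries. Another annotated gene covers 7.88% of the exonic bases of CDKN2A and none of those of CDKN2B and CDKN2C. The remaining member of that family, CDKN2D, had 11.2, 10.6, 12.1 and 9.90 CPM. CDK4 reached 93.2 ± 3.81 CPM and CDK6 253 ± 7.27 CPM. RB1, the protein through which these inhibitors act, had 172, 185, 193 and 183 CPM. Of the D-type cyclins, CCND1 had 499 ± 14.2 CPM and CCND3 56.1 ± 4.40 CPM, and CCND2 had no reads. CDKN1A, or p21, had 50.2, 49.3, 51.4 and 50.2 CPM, and CDKN1B, or p27, 66.5 ± 2.35 CPM.

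Other suppressors spanned a wide range. QKI, an RNA-binding protein, had 393 ± 16.4 CPM, ATRX, a chromatin remodeller, 356 ± 19.5 CPM, and NF2, or merlin, 313 ± 19.1 CPM. NF1, the RAS-inhibiting protein neurofibromin, had 29.2, 31.4, 32.3 and 33.5 CPM. DCC and NDRG2 were detected at 3.13 ± 0.692 CPM and 2.83 ± 0.594 CPM. FHIT at 0.957 ± 0.224 CPM, PTPRD at 0.438 ± 0.114 CPM and DMBT1 at 0.0607 ± 0.0532 CPM were not, and without replicate 4 DMBT1 stood at 0.0392 CPM.

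The neighbours of the genes without reads were taken in order of position. On chromosome 9 (GRCh38), CDKN2A lies between MTAP, a methionine salvage enzyme that ends at 21937651, and DMRTA1, which starts at 22446841. MTAP had 2603, 2359, 2415 and 3296 counts in replicates 1 to 4, and DMRTA1 had 323, 251, 292 and 335. Both were detected, at 95.9 ± 5.33 CPM and 10.8 ± 0.529 CPM. The 509 kb between them wholly hold 9 annotated genes, and 8 of these had no reads. The exception was the long intergenic RNA AL157937.1, named after its values were seen, with 42, 39, 32 and 61 counts. At a mean of 1.55 CPM and at least 1 CPM in every library, it counts as detected. Farther toward the short arm's end, KLHL9, FOCAD and MLLT3 were detected at 80.3 ± 0.567 CPM, 69.9 ± 2.69 CPM and 48.6 ± 0.725 CPM. The interferon genes between were at 0 to 14 counts over the 4 libraries. Over 3 Mb on each side, 10 of 35 protein-coding genes were detected.

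On chromosome 1, CDKN2C lies in a run of 5 neighbouring protein-coding genes without reads, ELAVL4, DMRTA2, FAF1, CDKN2C and C1orf185, from 50048014 to 51148086. FAF1 encodes a widely expressed adaptor protein of the ubiquitin system, and it had 0 counts in the DMSO libraries and 1 in the other 12. ELAVL4 is a neuronal RNA-binding protein gene and had 3 counts in the other 12 libraries. On one side AGBL4, a tubulin-modifying enzyme, had 6, 8, 15 and 8 counts, and BEND5 was detected. On the other side RNF11, a ubiquitin ligase, had 4736, 4194, 4812 and 5657. BEND5 and RNF11 are 2459 kb apart, and AGBL4 reaches into that stretch. Of the 30 annotated genes that lie wholly inside it 25 had no reads, and the 30 had 15 counts together. Over 3 Mb on each side, 29 of 44 protein-coding genes were detected. Runs of at least 5 protein-coding genes without reads occurred 112 times in the genome, and the genes in the other runs were not examined. Whether DNA is missing at these places, or the genes are silent, cannot be told from RNA and was not tested.

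**Figure D3:**
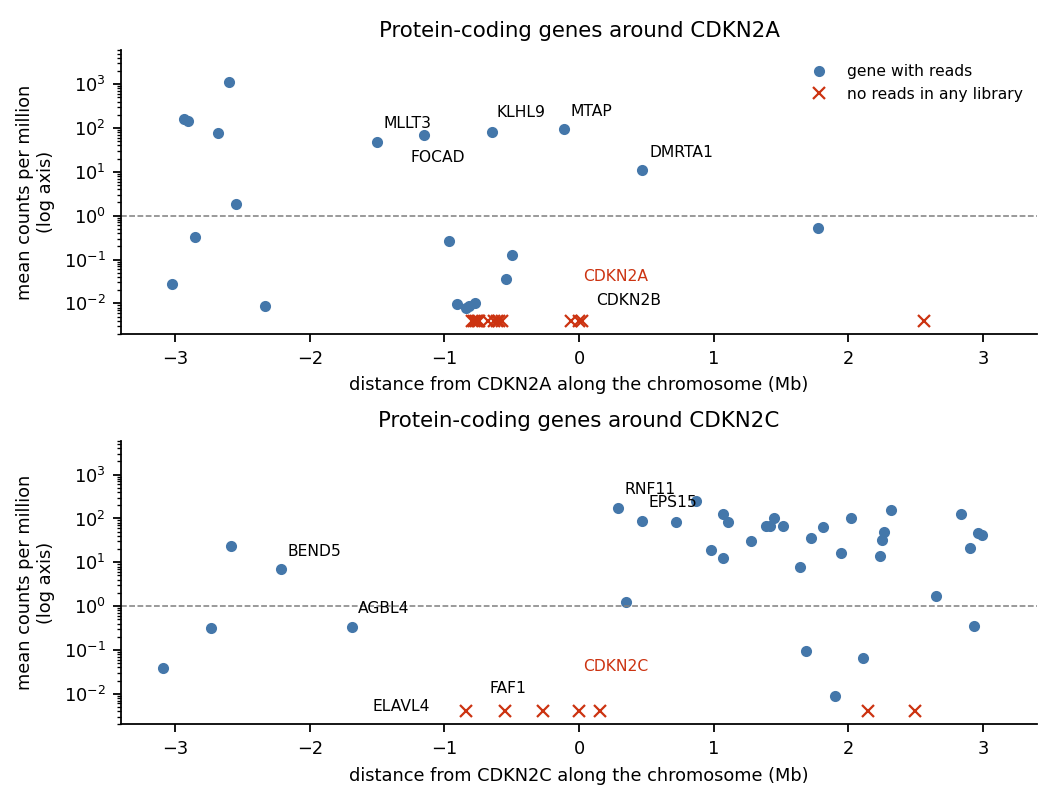
Mean CPM (log axis) of protein-coding genes within 3 Mb of CDKN2A (upper) and CDKN2C (lower), by distance along the chromosome, with genes without reads as crosses at the bottom. MTAP and DMRTA1 on chromosome 9, and BEND5 and RNF11 on chromosome 1, are the nearest detected protein-coding genes.

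Receptors were detected in 168 of 264 cases, 63.6%, near the 60.0% of all nuclear protein-coding genes. Receptor tyrosine kinases bind growth factors, ephrins or matrix and were detected in 35 of 58 cases, with a median of 1.86 TPM. EPHA2, a receptor for ephrin A ligands, stood at 344 TPM and had 369.8, 342, 361 and 346 CPM. EPHA3 had 276, 312, 333 and 313 CPM and the collagen receptor DDR1 409.9, 402, 401 and 360.1 CPM. EGFR had 152, 144, 171 and 149 CPM, PDGFRA 161 ± 4.59 CPM, MET 117 ± 3.45 CPM and AXL 127 ± 3.62 CPM. IGF1R, the receptor of insulin-like growth factors, had 176, 174, 187 and 169.8 CPM. Its closest relative INSR, the insulin receptor, had 0, 0, 1 and 1 counts in the 4 libraries, a mean of 0.0174 CPM, or 0.0104 CPM without replicate 3. FGFR1, FGFR2 and FGFR3 were detected at 89.9 ± 2.07 CPM, 65.1 ± 1.02 CPM and 28.4 ± 2.50 CPM, while PDGFRB was near the threshold at 1.95 ± 0.131 CPM and FLT4 had no reads.

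Integrins, which bind matrix, were detected in 17 of 25 cases with a median of 3.15 TPM. ITGB4, which pairs with ITGA6 to bind laminin, had 1112, 1067, 1116 and 1085 CPM. ITGA3, another laminin-binding subunit, had 1165, 1083, 1148 and 1077 CPM. Per length they were the 2 highest integrins, at 652 TPM for ITGB4 and 459.8 TPM for ITGA3, and their order turns when the longest transcript is the length. ITGA6 had 133 ± 3.44 CPM, ITGB1 291 ± 9.86 CPM, ITGAV 367 ± 27.4 CPM and ITGB8 387 ± 28.4 CPM. The leukocyte integrins ITGAM and ITGAX had no reads.

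TGF-beta superfamily receptors were detected in 13 of 15 cases, with a median of 14.8 TPM. TGFBR2, which binds the ligand, had 84.8, 85.7, 85.4 and 80.0 CPM, and TGFBR1, the kinase it activates, had 59.3, 61.8, 61.7 and 60.2 CPM. ACVRL1, the endothelial type I receptor, was at 0.0268 ± 0.0183 CPM. Of 23 ligands of the superfamily 11 were detected, with TGFB1 at 134, 122, 131 and 127 CPM, TGFB2 at 32.9 ± 2.49 CPM and TGFB3 at 14.4 ± 0.391 CPM. The coreceptor TGFBR3 was near the threshold at 2.10 ± 0.116 CPM.

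Cytokine receptors were detected in 18 of 25 cases. IL6ST, the signal transducer gp130, had 226, 245, 250.3 and 257 CPM, and OSMR, which pairs with it for oncostatin M, had 129 ± 6.27 CPM, while IL6R had 5.06 ± 0.518 CPM. IL13RA2, a decoy receptor of IL-13 used as a target in glioma, had 45.1, 42.4, 45.1 and 42.1 CPM. The TNF receptor family had 13 of 20 detected. TNFRSF12A, the receptor of TWEAK, was its highest member per length at 376 TPM, with 201, 175, 185 and 128 CPM, and replicate 4 was the lowest. The TRAIL receptor TNFRSF10B had 97.2 ± 3.69 CPM, and CD40 had no reads.

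Receptors of developmental signals were detected in 19 of 22 cases. NOTCH2 had 197 ± 12.5 CPM and NOTCH1 74.3 ± 1.85 CPM, while NOTCH3 was low at 0.952 ± 0.214 CPM. The Wnt receptors FZD1 and FZD6 had 126 ± 6.28 CPM and 118 ± 6.69 CPM, and the Hedgehog transducer SMO had 49.6 ± 2.43 CPM. Neurotransmitter receptors were detected in 14 of 37 cases, 37.8%, with a median of 0.259 TPM. DRD2, the dopamine D2 receptor, was the highest per length at 40.9 TPM and had 41.3, 41.4, 42.3 and 41.5 CPM. The serotonin receptor HTR7 came next at 23.1 TPM. GABBR1, a subunit of the GABA-B receptor, varied more, with 16.2, 22.5, 12.3 and 21.3 CPM. Among nuclear receptors 22 of 30 were detected. The glucocorticoid receptor NR3C1 had 149, 158, 166 and 164 CPM, ESR1 was low at 0.186 ± 0.144 CPM, and PPARG had no reads. Chemokine and other G-protein-coupled receptors had 17 of 32 detected. The thrombin receptor F2R stood at 75.4 TPM, and CXCR4 was low at 0.841 ± 0.153 CPM.

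**Figure D4:**
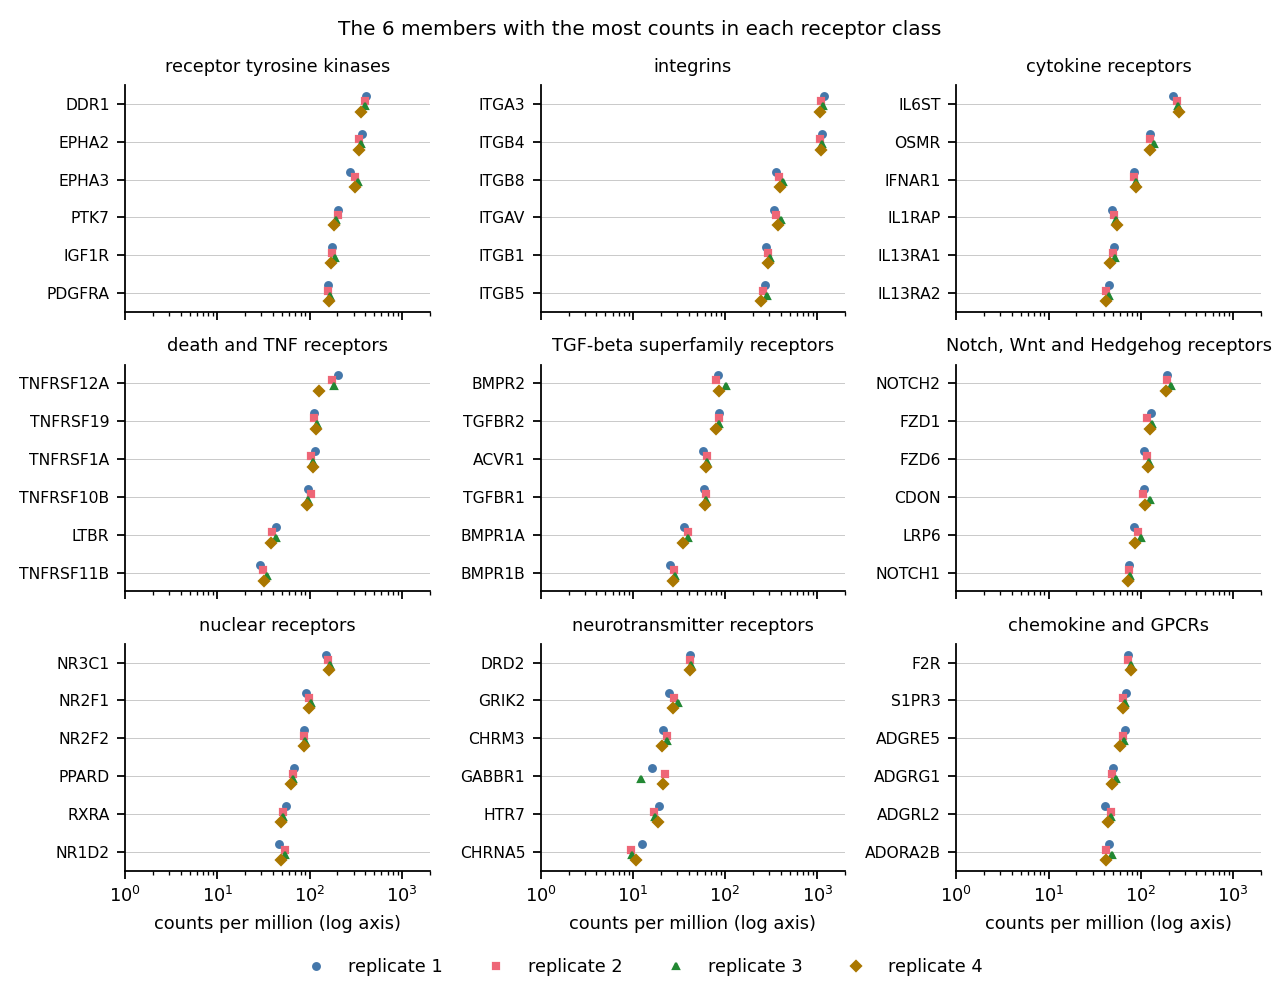
CPM (log axis) of the 6 members with the most counts in each of 9 receptor classes, with 1 symbol per DMSO library. The integrins ITGA3 and ITGB4 lie above 1000 CPM in every library, and the libraries spread most for TNFRSF12A and GABBR1.

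Drug targets were detected in 110 of 126 cases, 87.3%, beside 60.0% of all nuclear protein-coding genes. Irinotecan is cleaved by carboxylesterases to an active form that traps topoisomerase I on DNA, and UGT1A enzymes inactivate that form. Of 31 genes of this pathway 19 were detected, 61.3% and so near the share of all nuclear protein-coding genes, with a median of 16.1 TPM. The target TOP1 had 172, 169, 178 and 178 CPM. TOP2A, a topoisomerase of dividing cells, had 919, 947, 959 and 927 CPM, and TOP2B had 178 ± 5.67 CPM. Of the activating enzymes, CES2 had 39.1, 37.5, 40.1 and 37.0 CPM, while CES1 had no reads. UGT1A1, UGT1A6, UGT1A9 and UGT1A10 had no reads. These 4 share exons, with 49.9% of the exonic bases of UGT1A1 and 70.7% of those of UGT1A10 in another gene, so reads of the shared part may not have been counted. The efflux pump genes ABCG2 and ABCB1 were low at 0.484 ± 0.0799 CPM and 0.269 ± 0.160 CPM, and ABCC1 had 139 ± 7.65 CPM. SLFN11, a factor that stalls damaged replication forks, had 77.9, 80.0, 75.9 and 76.9 CPM. TDP1, which removes trapped topoisomerase I, had 51.2 ± 2.01 CPM, and the kinase gene CHEK1 had 77.6 ± 2.29 CPM.

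Statins block mevalonate synthesis, which feeds cholesterol and the lipid anchors of small GTPases. Of 45 genes of the mevalonate pathway and of statin handling 40 were detected, with a median of 59.7 TPM. HMGCS1, an early step, had 119, 136, 135 and 123 CPM, FDFT1, the branch to sterols, 198 ± 5.11 CPM and SQLE 70.3 ± 1.30 CPM. GGPS1, which makes the geranylgeranyl anchor, had 35.9 ± 1.64 CPM. Of the GTPases that carry it, RHOA had 511 ± 7.75 CPM and RAC1 1018 ± 17.9 CPM. The regulators SREBF2 and INSIG1 had 272 ± 10.8 CPM and 259 ± 13.3 CPM. CYP51A1, a sterol demethylase, had only 2.21 ± 0.186 CPM, and 83.2% of its exonic bases lie in another annotated gene, so its level is uncertain. The uptake transporter SLCO1B1 was low at 0.654 ± 0.0469 CPM and SLCO2B1 had no reads.

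Among 55 other targets of cancer drugs 54 were detected, with a median of 77.6 TPM, and the exception was MGMT (ENSG00000170430), with 0 counts in every DMSO library and in the other 12. Another gene covers 8.04% of its exonic bases. The 3 highest per length were HSP90AB1 at 2297 TPM, TUBB at 2273 TPM and HSP90AA1 at 1871 TPM, and their order turns with the length used. CDK6 stood at 83.0 TPM against 119 TPM for CDK4. BIRC5, or survivin, had 245 ± 19.1 CPM, PARP1 339, 321, 334 and 316 CPM and EZH2 113 ± 2.76 CPM. Of the antiapoptotic BCL2 family, BCL2 stood at 1.59 TPM, MCL1 at 411 TPM and BCL2L1 at 77.6 TPM.

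The low values of LDHA and MIF are uncertain. LDHA, the lactate dehydrogenase A subunit, had 20.1, 19.7, 22.8 and 21.0 CPM. Per length it stood at 13.6 TPM against 795 TPM for the B subunit LDHB. None of the exonic bases of LDHA lie in another annotated gene, and 6 pseudogenes carry its name, with 0.387 CPM in all. MIF, a cytokine, had 1.09 ± 0.272 CPM, with 62.0% of its exonic bases shared with another gene. How the authors treated reads that match several places is not given in the sources used here, and its part in these values was not tested.

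The 4 libraries differed little from each other. The common biological coefficient of variation, edgeR's estimate of the spread beyond counting error, was 5.93% over 14869 genes. Of 9388 nuclear protein-coding genes with a mean of 10 CPM or more, the median CV was 4.85%, 92.4% had a CV under 10%, and 42 had one above 20%. The CV fell with level, and the median was 12.5% for genes at 1 to 10 CPM and 3.81% at 100 to 1000 CPM. Pairs of libraries were compared by chi-squared over its degrees of freedom, which would be near 1 between repeat counts of the same library. It was 3.85 for replicates 2 and 4, 5.05 for replicates 1 and 3 and 9.15 to 13.9 for the other 4 pairs. No pair was thus a duplicate. The first principal component took 46.8% of the variance, with replicate 2 at one end and replicate 3 at the other, and the second took 28.1%.

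The 15 protein-coding genes of highest CV were all highest in replicate 2, and 14 were lowest in replicate 3. FOSB, an AP-1 subunit induced by stimulation, had 29.6, 59.9, 26.7 and 42.2 CPM, a CV of 38.2%. DDX39B, an RNA helicase of mRNA export, had 66.2, 95.8, 44.6 and 79.7 CPM. LENG8 had 132, 198, 93.4 and 163 CPM and NFKBIZ, a nuclear NF-kappaB regulator, 17.6, 23.4, 11.8 and 17.8 CPM. GOLGA8B, with 41.5 ± 13.4 CPM, belongs to a family of near-identical copies, and its counts are uncertain. Over all 9388 genes, replicate 2 was highest in 22.8% and replicate 3 lowest in 19.7%.

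Of 11 listed long non-coding RNAs at 10 CPM or more, 9 were highest in replicate 2 and 9 were lowest in replicate 3. NEAT1, the scaffold of paraspeckles, had 599, 1031, 405 and 729 CPM. MALAT1, which lies in nuclear speckles, had 422, 666, 341 and 559.6 CPM, and MEG3 had 152, 255, 97.5 and 196 CPM. NORAD, a cytoplasmic long non-coding RNA, had 312, 340.2, 342 and 327 CPM, a CV of 4.18%. Mitochondrially encoded transcripts took 3.06, 4.58, 2.69 and 4.40% of counts in replicates 1 to 4. All 13 mitochondrial mRNAs were detected and 12 were lowest in replicate 3. MT-CO1, a subunit of cytochrome c oxidase, had 5731, 8924, 5331 and 8496 CPM, a CV of 26.0%. The mitochondrial share was thus highest in replicate 2 and lowest in replicate 3 as well, and its part in the spread of the other genes was not tested.

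At the other end, the 5 protein-coding genes of lowest CV were C5orf22, POLR2H, FOPNL, DYRK1B and MKL1. Their CVs of 0.205 to 0.316% lay below counting error, whose median was 3.22% for genes at 10 to 100 CPM. They are the extremes of 9388 genes, so their order is no measure of stability. POLR2H, a subunit shared by RNA polymerases, had 65.9, 65.8, 66.1 and 66.1 CPM, and DYRK1B, a kinase, had 14.8, 14.7, 14.7 and 14.8 CPM. Among common reference genes, HPRT1 had 78.5, 79.6, 77.6 and 77.1 CPM, a CV of 1.39%, and RPLP0 had 1365 ± 89.2 CPM, a CV of 6.54%. GAPDH had a CV of 5.69% and ACTB of 4.38%.

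**Figure D5:**
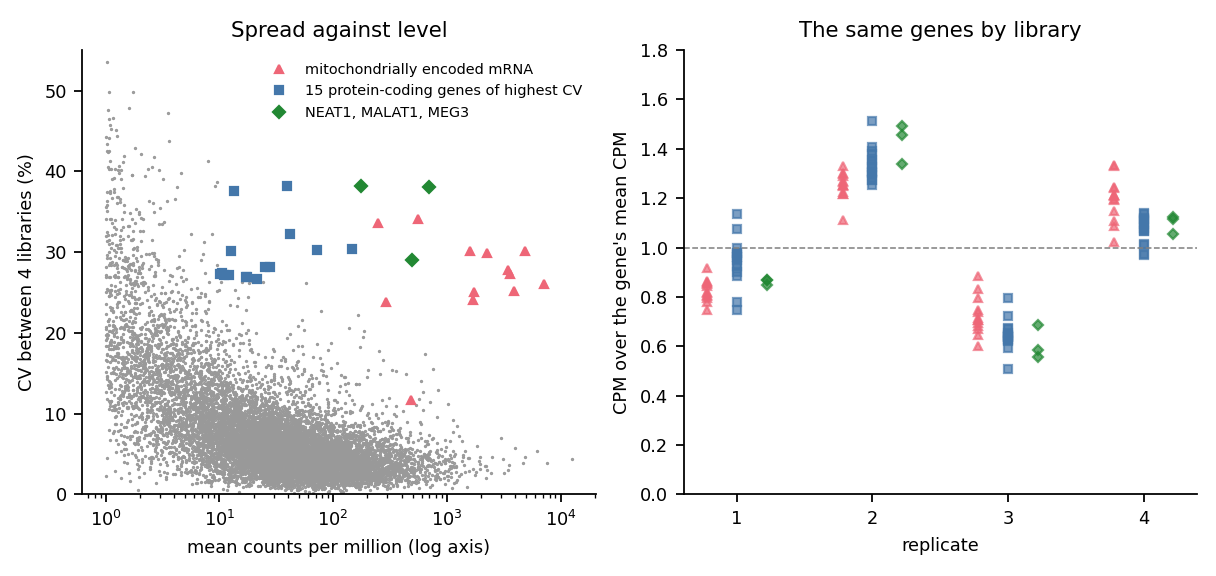
Left, CV between the 4 DMSO libraries against mean CPM (log axis), with each grey point a nuclear protein-coding gene. Right, CPM of the coloured genes over each gene's own mean, by library (the replicate numbers have no order), where most of them are highest in replicate 2 and lowest in replicate 3.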

How the data were processed

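The authors deposited raw counts for 58243 Ensembl gene IDs, without normalisation. Per the submitters' processing notes, FastQC, STAR 2.7.1, DESeq2 and GRCh38 were used. The counter, its treatment of strand and of reads that match several places, and the annotation release were not given in the sources used here, so reads of overlapping genes on opposite strands cannot be told apart. Gene positions, types and exon lengths came from GENCODE 29, which held 57980 of the IDs.

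CPM were counts over the library total (24478638 to 31932971). TPM used the combined exon length. The spread was estimated with edgeR 4.0.16 in R 4.3.3, after TMM scaling and filterByExpr, and its script was tested on simulated data. Figures were drawn with matplotlib 3.10.9. Only 1 group was described, so no test was made. There were 41 gene lists with 984 entries, of which 2 matched no ID. The members and lists were chosen with earlier results of these data known. Named genes were the 20 highest by CPM or TPM, list members (of lists over 15, the 12 highest by TPM and those without or with trace reads), the 15 highest and 5 lowest by CV at 10 CPM or more, and genes within 3 Mb of a tumour suppressor without reads. Members of the longer lists that are named beside these were chosen after their values were seen. Results of some genes that the rule takes are not reported here. Alternatives were TMM scaling, totals without mitochondrial genes, thresholds of 0.5 and 5 CPM, at most 3 counts in place of none, TPM by either length, DESeq2 1.42.0 size factors, no filter and leaving out each library.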

Additional observations from a re-analysis of the deposited data

Results flagged for a closer look

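In 9 of 191 values over the 4 libraries, which were genes named in the text with at least 10 counts and 4 measures of the libraries, 1 library lay far from the other 3 relative to their range. Chance flags about 1 in 20 such groups, and 4.71% were flagged here. Replicate 3 was the highest for DPYSL3 at 3581 CPM against 3355 to 3393 CPM in the others, for FDFT1 at 206 CPM against 195 to 196 CPM, for DRD2 at 42.3 CPM against 41.3 to 41.5 CPM and for HOXC10 at 27.9 CPM against 25.9 to 26.3 CPM. Replicate 3 was the lowest for CXCR4 at 0.614 CPM, against 0.899 to 0.939 CPM in the others. Replicate 4 was the lowest for NES at 976 CPM against 1171 to 1203 CPM, and for TGFBR2 at 80.0 CPM against 84.8 to 85.7 CPM. Replicate 2 was the lowest for CHEK1 at 74.1 CPM against 78.6 to 78.9 CPM, and for RHOA at 499 CPM against 514 to 515 CPM.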

How the results depend on the processing

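No paired analysis was possible because only 1 group was described and its results come from no test. The counts of detected receptors and drug targets, of all detected genes and of mesenchymal, astrocyte, proneural and epithelial genes stayed within 1.5 times their main value under each alternative tried. Of the other lists, the oligodendrocyte count was 5 at 0.5 CPM, the neuron count 3 at 5 CPM and the endothelial count 0 at 5 CPM. The microglia count was 1 at 0.5 CPM and with totals without mitochondrial genes, and 0 to 1 on leaving out each library, through CSF1R. The 3 tumour suppressors without reads were also the count at no more than 3 counts over the 4 libraries. Without mitochondrial genes the top 10 genes held 5.51% and the top 100 held 17.3% of counts. Ranked by TPM over the combined exons they held 4.43% and 16.9%, and by TPM over the longest transcript the top 100 held 16.8%. Leaving out each library gave a biological coefficient of variation of 5.38 to 6.30%, and the lowest was without replicate 3. Median-ratio factors gave 5.92% and no filter 6.08%. Of 1410 recomputed levels of 235 named genes, 62 moved by more than 1 SD, all with totals without mitochondrial genes. That setting raises all levels by nearly the same share, so the genes that passed the limit are those with a small SD. The 62 are thus no measure of how stable the levels are. Leaving out 1 of 4 libraries cannot move a mean by more than 1 SD of those 4, so for these settings the SD limit says nothing. By ratio, 10 named genes, of which CDH1 had the highest mean at 0.162 CPM, moved by over 1.5 times on leaving out a library. Without replicate 4 the mean was 0.102 CPM for CDH1, 0.0245 for CDH5, 0.0392 for DMBT1, 0.0234 for OLIG2 and 0 for STMN2. Without replicate 3 it was 0.0104 for INSR, 0.0241 for OLIG1 and 0.0104 for PECAM1, and it was 0 for DCX without replicate 1 and for EPCAM without replicate 2. Below about 0.1 CPM a library of this depth cannot separate a low level from none.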

Other observations

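HOX genes, which set position along the body axis and are silent in normal cortex, had detected members in all 4 clusters. The HOXB cluster had 9 of 10 members detected (90%), HOXA 7 of 11 (63.6%), HOXC 6 of 9 (66.7%) and HOXD 4 of 9 (44.4%). The share over all nuclear protein-coding genes was 60.0%, so HOXA and HOXC were near it and HOXD was below it. The medians were 15.9 TPM for HOXB, 3.98 for HOXA, 6.06 for HOXC and 0.824 for HOXD, against 5.98 TPM over all nuclear protein-coding genes. HOXB3 had 365, 397, 358 and 397 CPM, and it was the highest HOX gene per length at 205 TPM. HOXB7 followed at 151 TPM and HOXB9 at 85.6 TPM, while HOXB1 had no reads. HOXD10 had 26.9 ± 3.49 CPM and HOXC10 26.6 ± 0.893 CPM. Of the SOX family 11 of 19 were detected, 57.9%. SOX21 had 193, 189, 204 and 191 CPM and SOX3 77.2 ± 4.45 CPM, beside SOX2 and SOX9. SOX8, SOX10, SOX14 and SOX17 had no reads.

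Surface antigens that are targets in immune therapy were detected in 29 of 36 cases, with a median of 21.5 TPM. CD276 had 226, 221, 224 and 204 CPM, CD70 82.8, 74.7, 76.8 and 70.9 CPM and CD274, or PD-L1, 23.8, 24.1, 24.7 and 23.6 CPM. HLA-DRA of class II had no reads. Of 24 cancer-testis antigens, genes otherwise confined to germ cells, 9 were detected. MAGEA3 had 35.5, 32.6, 34.6 and 29.2 CPM, MAGEA1 7.57 ± 0.983 CPM and PRAME 6.79 ± 0.838 CPM, while MAGEA4 and CTAG1B had no reads. MAGE genes share sequence with near copies, so their counts are uncertain. Of 40 secreted factors 28 were detected. SPARC had 1763, 1722, 1825 and 1753 CPM, CCL2 423, 421, 462 and 445 CPM and VEGFA 497 ± 27.8 CPM, and CXCL1 and AREG had no reads. All 24 immediate early genes were detected, with EGR1 at 989, 1142, 1014 and 1090.0 CPM.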
